A study of Mus musculus with 14 samples.

Results

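The 9 genes described here are markers of B cells and of the plasma cells that B cells become, measured in RNA-seq libraries of sorted regulatory T cells (Tregs). They were chosen by symbol, as the rows of the deposited count tables whose Ensembl IDs carry the names of 6 B cell genes (Ms4a1, Cd79a, Cd79b, Pax5, Ighm and Ighd) and 3 plasma cell genes (Igha, Jchain and Mzb1). All 9 were found, among 55487 genes in one table and 53801 in the other.

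The study asked how the AP-1 transcription factor JunB shapes Tregs of the colon and of Peyer's patches (PP), the lymphoid follicles of the gut wall. In the first mouse line, Cre recombinase fused to YFP was made from the Foxp3 gene, and PP Tregs (CD4+, Foxp3-YFP+, with a sort gate narrower than all Tregs) came from 2 male HET mice (JunB F/+ Foxp3YFPcre) and 2 male KO mice (JunB F/F Foxp3YFPcre), which received no tamoxifen. In the second, inducible line, Foxp3 drove EGFP and Cre-ERT2, which tamoxifen activates, and a Rosa26 allele lit tdTomato in cells where Cre had acted. Its colonic Tregs (TCRb+CD4+Foxp3-EGFP+tdTomato+) came from 3 iHET and 3 iKO mice and its PP Tregs, gated in addition as CD25-, from 2 iHET and 2 iKO mice. The iHET mice were JunB F/+ and the iKO mice JunB F/F, with Foxp3ERT2cre on the only X chromosome of the males and on both of the females, and Rosa26-tdTomato. Each inducible group held 1 male, which was mouse 1, and otherwise females. All mice of the inducible line were gavaged 3 times with 8 mg of tamoxifen in olive oil, on days 0, 1 and 3, and their cells were collected on day 7. Every mouse, controls included, thus carried Cre and at least 1 floxed Junb allele. The paper describes Cre activity of the Foxp3-YFP-cre line outside Tregs and in the germline, while the inducible line labels only cells that expressed Foxp3 during tamoxifen.

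B cells carry an antigen receptor made of a membrane immunoglobulin, IgM or IgD on naive cells, and the signalling chains CD79a and CD79b. When they become plasma cells they shut down the B cell program under Pax5, switch the heavy chain and secrete antibody, in the gut mostly IgA joined into dimers by the J chain. Peyer's patches are built of B cell follicles with germinal centres, and IgA plasma cells lie in the lamina propria of the colon. Neither cell type was sought by the sort gates.

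Each library held between 26274861 and 35508709 counts of reads on gene exons, given below as CPM, the reads of a gene relative to its library's total, with library sizes scaled by edgeR's TMM factors. A floor of 3 counts lay between 0.0899 and 0.111 CPM and covers counting error only. Junb matched the labels, at 4182 to 8471 CPM in the HET and iHET libraries and 560.9 to 1029 CPM in the KO and iKO libraries. Of 11 genes of T cell and Treg identity, none was near the floor, and their summed level was 7986 to 12479 CPM, with Cd4 at 890.9 to 1187 CPM and Foxp3 at 59.7 to 155 CPM. The B cell genes together took 0.0219% to 0.245% of all counts and the plasma cell genes 0.00172% to 0.113%. In such bulk libraries, fewer cells of a type and less RNA per cell cannot be told apart, and whether the reads came from B lineage cells in the sort, from RNA carried over or from the Tregs was not tested. Replicates are separate mice, and the tables of the 2 lines were sequenced and normalized separately, so levels set across them are given side by side without a test.

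Promoter sequences are shown for the 3 of 9 members that RefSeq's promoter table for GRCm38.p6 held: Cd79a, as a chain of the receptor, and Pax5 and Jchain, whose fitted differences between the organs had opposite signs. Each runs 5′ to 3′ on the strand of its gene. That of Pax5 (chr4:44710695-44710944, minus strand) and that of Jchain (chr5:88527898-88528147, minus strand) are the 250 bases before the RefSeq start, and that of Cd79a (chr7:24897247-24897380, plus strand) is cut to the 134 bases before the GENCODE gene. Capitals mark matches to 3 motifs searched on both strands: TGANTCA, which AP-1 proteins such as JunB bind, the octamer ATGCAAAT of immunoglobulin promoters, and the E-box CAGGTG of E proteins.
Cd79a: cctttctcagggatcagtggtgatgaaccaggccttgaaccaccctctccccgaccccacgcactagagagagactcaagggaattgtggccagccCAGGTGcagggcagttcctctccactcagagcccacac
Pax5: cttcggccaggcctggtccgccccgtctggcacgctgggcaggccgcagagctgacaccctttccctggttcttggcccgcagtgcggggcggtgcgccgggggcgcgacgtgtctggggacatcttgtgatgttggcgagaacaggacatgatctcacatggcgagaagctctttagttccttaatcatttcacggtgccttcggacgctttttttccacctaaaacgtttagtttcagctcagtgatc
Jchain: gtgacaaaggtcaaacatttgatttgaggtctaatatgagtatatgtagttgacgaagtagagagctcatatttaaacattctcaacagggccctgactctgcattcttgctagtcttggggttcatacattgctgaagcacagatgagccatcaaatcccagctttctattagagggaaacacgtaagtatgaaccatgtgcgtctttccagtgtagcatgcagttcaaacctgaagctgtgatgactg
The only match was 1 CAGGTG in Cd79a, which begins 154 bases before the RefSeq start and overlaps no other motif. Among the 32851 promoters of the table, windows of 134 bases held CAGGTG in 9.75%, TGANTCA in 3.47% and ATGCAAAT in 0.843%, and windows of 250 bases held them in 17.2%, 6.75% and 1.6%.

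Members stood at very different levels. Per kb of exon, Ighm, the constant region of the IgM heavy chain (ENSMUSG00000076617.9, chromosome 12 of GRCm38 from 113418558 to 113422730, minus strand), led the B cell genes in every group, with a mean of 453 CPM per kb in CD25- PP iHET and 137 CPM per kb in colonic iHET Tregs. The next was Cd79b at 12.5 and 13.6 CPM per kb in the same groups. Pax5, the transcription factor that keeps B cells in their lineage (ENSMUSG00000014030.15, chromosome 4 from 44524757 to 44710487, minus strand), was the lowest of the 6 at 0.294 and 0.0656 CPM per kb. Of its exon bases, 8.6% also belong to other annotated genes. Among the plasma cell genes, Igha, the constant region of the IgA heavy chain (ENSMUSG00000095079.6, chromosome 12 from 113254830 to 113260236, minus strand), reached a mean of 239 CPM per kb in colonic iHET Tregs, above Ighm there, but only 15.2 CPM per kb in CD25- PP iHET Tregs.

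**Figure D1:**
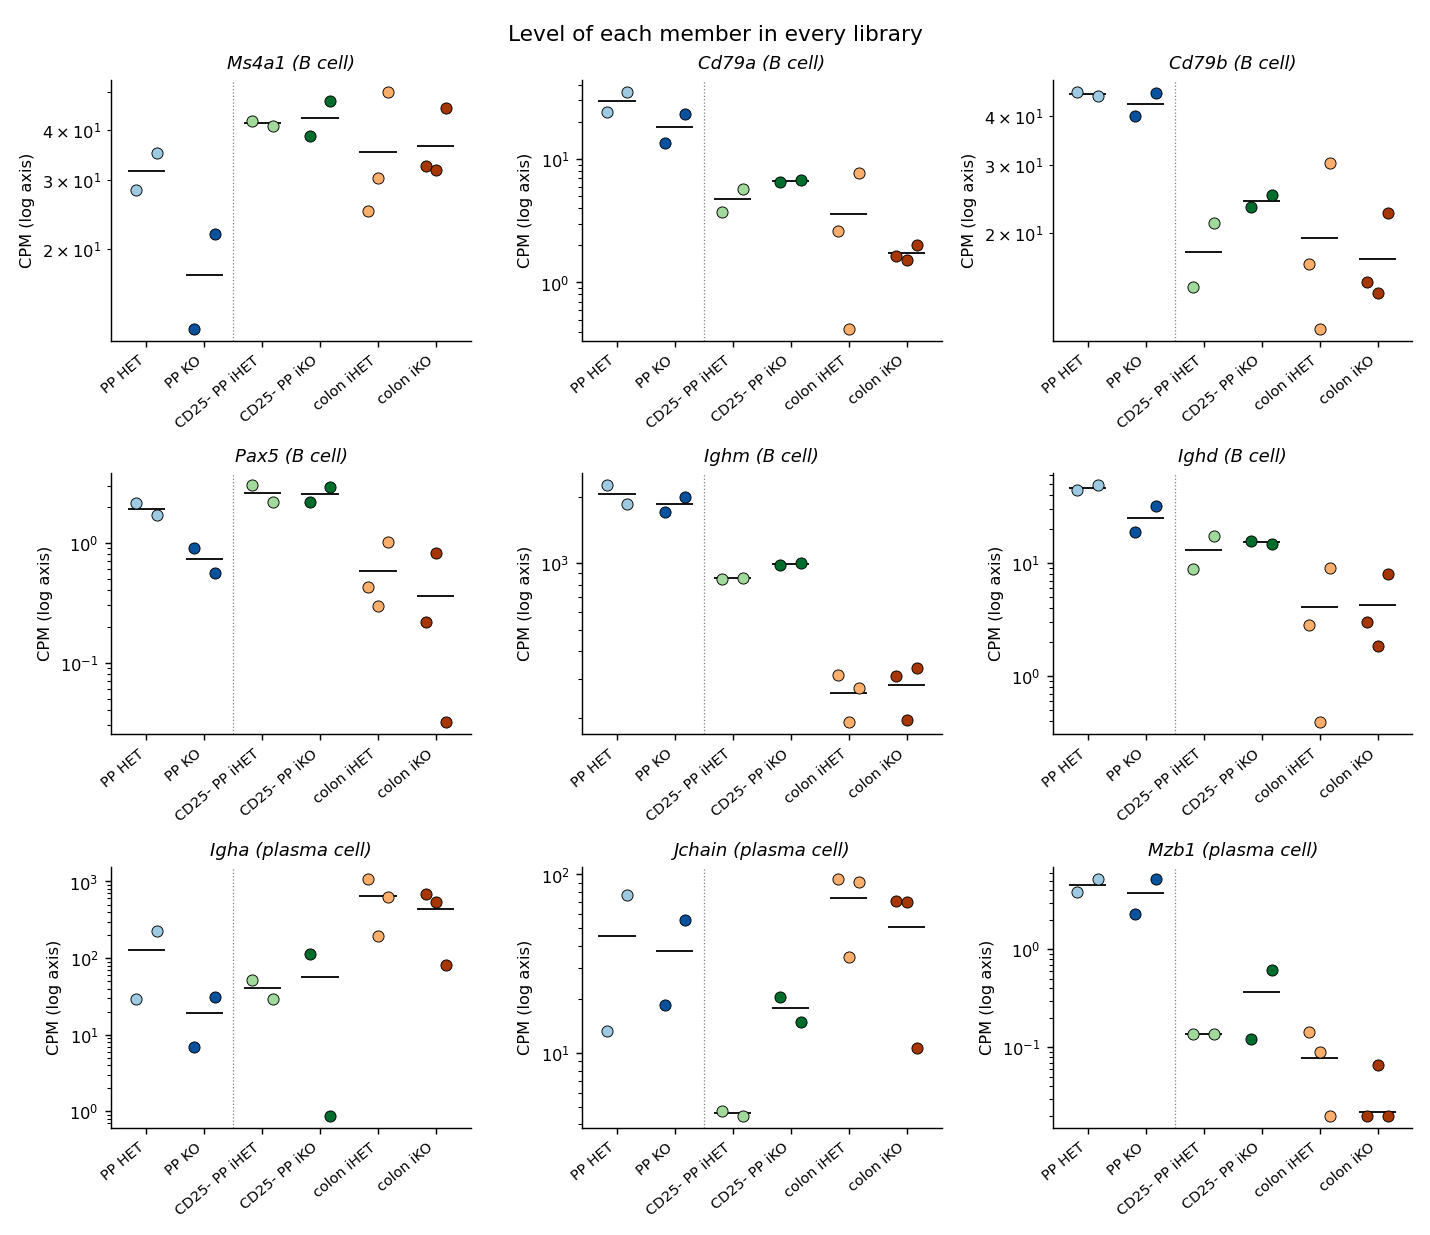
Level of each member in CPM on a log axis, with 1 point per library, a bar at the mean of its group and a dotted line between the separately normalized tables. Ighm lay at 850.2 to 999.8 CPM in CD25- PP and at 190.6 to 334.7 CPM in colonic Tregs, most colonic libraries lay above the CD25- PP libraries for Igha and Jchain, and Mzb1 points drawn at 0.02 CPM had 0 counts.

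The comparison of organs bears most directly on these genes, though most members did not pass in it. Across the 10 inducible libraries, averaged over genotypes, Ighm was lower and Jchain higher in colonic than in CD25- PP Tregs. Of all 18626 genes tested, 17.3% passed an FDR of 0.05 in edgeR's quasi-likelihood test, 7.29% lower and 10% higher in the colon. Of the 6 B cell genes, 2 were called lower, Ighm and Pax5. Pax5 passed the filter on low counts through the PP libraries alone. Every colonic library was under the 1 CPM of the filter, which is taken before TMM scaling, so its call is given as a description only. The other 5 had log2 fold changes between -1.77 and -0.19, beside a median of 0.00072 over all genes tested. Of the 2 plasma cell genes that could be tested, 1 passed, higher, and their median was 3.10. Ighm did not overlap between the organs, which held in the same direction for 7.37% of all genes tested. The fit treats the 10 libraries as independent, and the labels do not say whether a colonic and a PP library of the same number came from 1 mouse.

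Ighm was at 850.2 and 859.3 CPM in the CD25- PP iHET libraries and 976.3 and 999.8 CPM in the iKO libraries. In the colon it was at 311.5, 190.6 and 272.7 CPM in iHET and 309.7, 195.9 and 334.7 CPM in iKO mice. The 4 PP libraries lay within 1.18-fold of each other and all above the 6 colonic ones, with a log2 difference of -1.77 (SE 0.170, 95% interval -2.15 to -1.39, edgeR adjusted p = 0.00025). The call held in each of the 10 fits that left out 1 library. Pax5 was at 3.03, 2.18, 2.19 and 2.91 CPM in the PP libraries, and in the colon at 0.426, 0.3 and 1.02 CPM in iHET and at 0.219, 0.825 and 0.0317 CPM in iKO mice. The last value is 1 read. All colonic libraries were below all PP libraries, with a log2 difference of -2.42 (SE 0.639, interval -3.84 to -0.99, edgeR adjusted p = 0.025), but the call was lost in 6 of the 10 fits without 1 library (colonic iHET mouse 2, colonic iKO mouse 1 or any PP mouse), where adjusted p rose to at most 0.0788.

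The other 4 B cell genes overlapped between the organs. Ighd, the constant region of the IgD heavy chain of naive B cells (ENSMUSG00000104213.5, chromosome 12 from 113406604 to 113416324, minus strand), ranged from 8.9 to 17.4 CPM in the PP and from 0.39 to 9.12 CPM in the colon, where only iHET mouse 3 exceeded the lowest PP library. Its difference was -1.74 (interval -3.21 to -0.28) with edgeR adjusted p = 0.0953, and it was called without colonic iHET mouse 3 (0.0232), by the likelihood ratio test, with no filter and with the mouse number as a block. Cd79a, a signalling chain of the B cell receptor (ENSMUSG00000003379.7, chromosome 7 from 24897381 to 24902197, plus strand), was at 3.71 to 6.74 CPM in the PP and at 0.42 to 7.77 CPM in the colon, again highest in iHET mouse 3. Its difference of -1.16 (interval -2.42 to 0.10) did not pass, with edgeR adjusted p = 0.18, and became 0.0261 without that library.

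Cd79b, the partner chain (ENSMUSG00000040592.11, chromosome 11 from 106311341 to 106314762, minus strand), hardly separated the organs, at 14.5 to 25.1 CPM in the PP and 11.3 to 30.4 CPM in the colon (difference -0.19, interval -0.78 to 0.41, edgeR adjusted p = 0.672). Ms4a1, which encodes the surface protein CD20 (ENSMUSG00000024673.9, chromosome 19 from 11249675 to 11266241, minus strand), was likewise at 38.7 to 47.5 and 25.0 to 50.1 CPM (difference -0.24, interval -0.68 to 0.20, adjusted p = 0.437). The intervals of these 2 genes did not include the log2 difference of -1.77 measured for Ighm.

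Jchain, which joins IgA dimers (ENSMUSG00000067149.6, chromosome 5 from 88519809 to 88527891, minus strand), was at 4.78 and 4.46 CPM in PP iHET and 20.7 and 15.0 CPM in PP iKO libraries. In the colon it was at 94.9, 34.7 and 90.9 CPM in iHET and at 70.9, 70.0 and 10.7 CPM in iKO mice, so 5 of 6 colonic libraries lay above all PP libraries and iKO mouse 3 below both PP iKO libraries. The log2 difference was 2.74 (SE 0.526, interval 1.57 to 3.91, edgeR adjusted p = 0.0073), and it passed in each fit without 1 library. Igha was at 52.0, 29.1, 113 and 0.874 CPM in the PP, the last in iKO mouse 2, and in the colon at 1092, 195 and 629 CPM in iHET and 681, 547 and 81.4 CPM in iKO mice. Its difference of 3.45 was larger, but so was its error (SE 1.07, interval 1.06 to 5.85), and edgeR's adjusted p was 0.052. Without PP iKO mouse 1 the difference was 6.44 (adjusted p = 0.0108), without PP iKO mouse 2 it was 2.96, and without colonic iKO mouse 3 the adjusted p was 0.0447.

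Mzb1, an endoplasmic reticulum chaperone of antibody-secreting cells (ENSMUSG00000024353.5, chromosome 18 from 35647267 to 35649367, minus strand), was near the floor throughout the inducible line. It had 0 to 4 counts in the colonic libraries, 5 of 6 at or under the floor, and 4, 4, 4 and 17 counts in the PP libraries, so it passed no filter there. The annotation places 57.2% of its exon bases also in the gene SPATA24, and reads on shared bases are assigned to neither. That SPATA24 entry had 0 counts in every inducible library and was absent from the counts of the Foxp3-YFP-cre mice. In the Foxp3-YFP-cre table, which lists an earlier version of the gene (ENSMUSG00000024353.4), it had 64 to 145 counts, and the 2 tables cannot be compared for it.

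**Figure D2:**
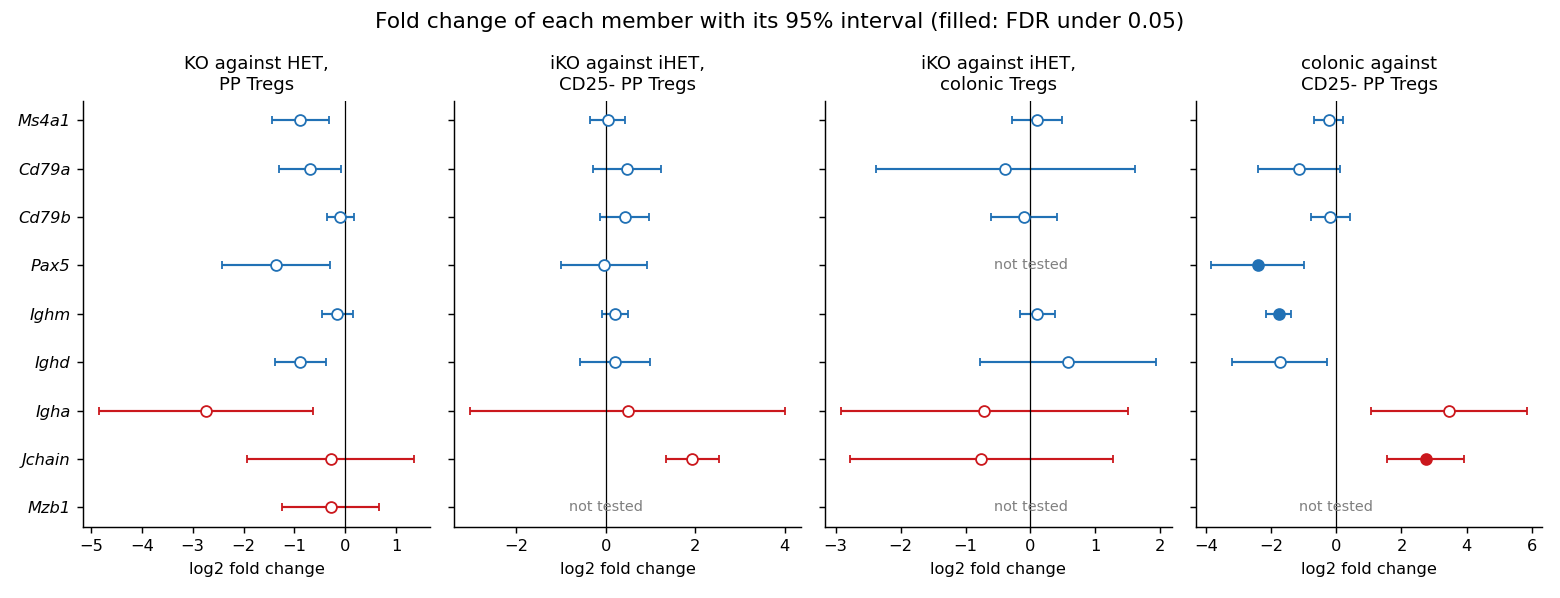
Log2 fold change of each member, with a 95% interval from edgeR's quasi-likelihood fit, in the 4 comparisons (blue for B cell genes, red for plasma cell genes, filled where the FDR is under 0.05). Ighm at -1.77, Pax5 at -2.42 and Jchain at 2.74 in the comparison of organs are the members that passed.

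Other genes of these cells were split in the same comparison. Of 16 further B cell genes, 3 were lower in the colon, 1 was higher and 12 did not pass, with a median of -0.50. Among all genes tested, 7.29% were called lower and 10% higher. Pou2af1, a coactivator of B cells that follicular T cells also use, was at 39.2 to 48.7 CPM in the PP and 2.87 to 9.25 CPM in the colon (log2 difference -2.79, SE 0.348, edgeR adjusted p = 0.000982). Cd22, an inhibitory receptor of B cells, had a mean of 20.7 and 4.8 CPM (-2.08, SE 0.286, adjusted p = 0.00155). Vpreb3 also passed at -0.94, while Cd72, a B cell receptor also found on some T cells, was higher in the colon at 1.40 (SE 0.156, adjusted p = 0.000551). Of 6 germinal centre B cell genes, only Mef2b passed, lower at -1.92, and most of their summed level was Neil1, a DNA repair enzyme, at a mean of 82.3 CPM in the PP and 59.2 CPM in the colon. The count of further B cell genes called was 3 to 6 in the fits without 1 library, 6 without colonic iHET mouse 3.

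Of all genes tested between the organs, 17.3% were called, 10% higher and 7.29% lower in the colon. Among the genes of antibody secretion, Igkc, the kappa light chain constant region, had a mean of 91.1 CPM in the PP and 288 CPM in the colon (log2 difference 1.78, SE 0.517, edgeR adjusted p = 0.0407). It was 1 of 2 called among 8 tested other immunoglobulin constant genes, the other being Ighg3, lower at -3.13, and 0 to 3 of the 8 were called in the fits without 1 library, 0 without PP iHET mouse 2 or PP iKO mouse 1 and 3 without colonic iHET mouse 2. Of 2 other plasma cell genes tested, Sdc1, which epithelial cells also make, passed at 1.18 but not without colonic iHET mouse 2, colonic iKO mouse 2 or any PP mouse, and Derl3 did not pass. Tnfrsf17, the BCMA receptor of plasma cells, was at 0 to 0.508 CPM in the colon and 0.243 to 0.796 CPM in the PP. Only 6 of the 8 constant genes passed the filter within the colonic libraries, and a lower call among the rest is a description only. Of 7 tested genes of the secretory program that effector T cells share, 6 were higher in the colon, led in level by Xbp1 and Irf4 at means of 325 and 297 CPM, and all 6 without overlap between the organs, beside 9.05% of all genes tested. The count was 4 to 6 in the fits without 1 library.

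Markers of other cells moved with the organ. Of 9 myeloid markers, 4 were higher in the colon, and of 13 epithelial markers 6 were higher and 1 lower. Of all genes tested, 10% were called higher and 7.29% lower. Only 6 of the 9 myeloid markers and 12 of the 13 epithelial markers passed the filter within the CD25- PP libraries. The rest needed the colonic libraries to pass it and are a description only. Myeloid markers summed to 106.6 to 298 CPM in the colon against 61.7 to 104 CPM in the PP, and epithelial markers to 235 to 2265 CPM against 206 to 561 CPM. The epithelial calls, 7 in all, fell to 1 without colonic iHET mouse 2, colonic iKO mouse 2, PP iHET mouse 2 or either PP iKO mouse, to 3 without colonic iKO mouse 3 and to 4 without colonic iHET mouse 1 or PP iHET mouse 1. Fabp1, a marker of small intestinal epithelium, was at 0 counts in the colonic libraries. It passed the filter through the PP libraries alone and is a description only. No other marker of these lists was at or under the floor in a whole organ. MHC class II genes summed to 319 to 1399 CPM in the colon and 194 to 452 CPM in the PP, and 1 of 4 passed, Cd74, higher, with 3 called without colonic iHET mouse 2 and 0 without any colonic iKO or any PP mouse. Of the 11 genes of T cell identity, 2 were higher and 6 lower, while their sums overlapped. The 8 calls fell to 2 without PP iKO mouse 2, 3 without PP iHET mouse 2 and 5 without PP iKO mouse 1. The part of these cells in the differences of the B lineage genes was not tested. Organ, CD25- gate and digestion, which included dispase in the colon alone, cannot be told apart.

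**Figure D3:**
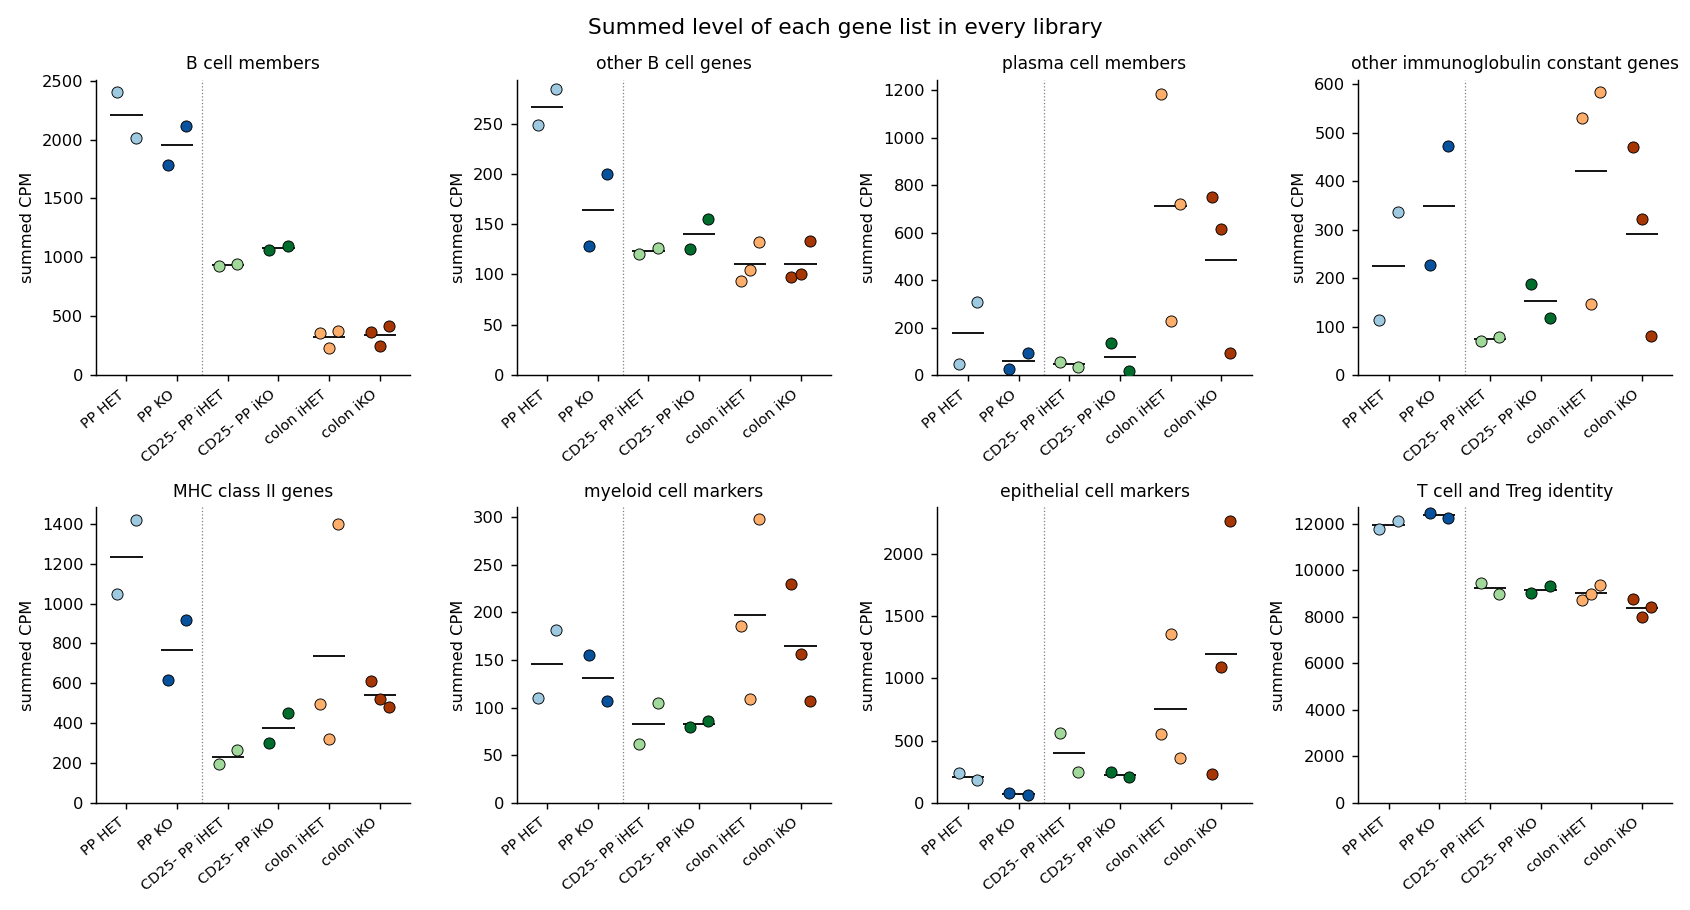
Summed CPM of 8 gene lists in every library, with a bar at the mean of each group. The sum of the 6 B cell members is mostly Ighm and separates the organs, whereas the sum of the 16 other B cell genes spans 93.2 to 133 CPM in the colon and 120 to 155 CPM in the CD25- PP.

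In PP Tregs of Foxp3-YFP-cre mice, most B cell genes were lower in KO than in HET libraries, but none of the members passed. There, 3.35% of 12224 genes tested were called, 121 higher and 288 lower. Pax5 passed the filter on low counts through the HET libraries alone and is left out of the counts. The other 5 B cell members had negative log2 fold changes, beside a median of 0.003 over all genes. Of these 5, 3 had an unadjusted p under 0.05, as had 14% of all genes tested. For those 3 the KO pair lay wholly below the HET pair, which held for 21.8% of all genes tested.

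Ighd read 44.0 and 49.0 CPM in the HET mice against 18.7 and 31.8 CPM in the KO mice, and its log2 fold change was -0.88 (SE 0.221, interval -1.39 to -0.37, edgeR adjusted p = 0.0842). Ms4a1 read 28.2 and 35.1 CPM in the HET mice against 12.6 and 21.8 CPM in the KO mice, the same fold change of -0.88 (interval -1.44 to -0.32, adjusted p = 0.113). Cd79a was at 24.3 and 35.3 CPM against 13.5 and 23.3 CPM, a fold change of -0.70 (interval -1.31 to -0.09, edgeR adjusted p = 0.271). In these 3 genes KO mouse 1 was the lower of the KO pair, and without KO mouse 2 all 3 passed, at adjusted p of 0.0032 to 0.0407, with the lone KO library assumed to vary like the HET pair.

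Pax5 read 2.13 and 1.71 CPM in the HET mice against 0.897 and 0.556 CPM in the KO mice (log2 fold change -1.36, interval -2.42 to -0.30, edgeR adjusted p = 0.187). Its order of the KO mice was the reverse of that of the 3 genes above. Cd79b, at 46.3 and 45.1 CPM against 39.98 and 45.8 CPM, and Ighm, at 2255 and 1849 CPM against 1701 and 1994 CPM, overlapped, and their intervals, -0.35 to 0.17 and -0.45 to 0.15, did not include the -0.70 of Cd79a, the smallest of the 3 changes above.

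The plasma cell genes varied widely between mice of a genotype. Igha read 29.3 CPM in HET mouse 1 and 227 CPM in HET mouse 2, against 6.93 and 31.5 CPM in the KO mice (-2.74, interval -4.84 to -0.63, edgeR adjusted p = 0.196). That fold change was -0.61 without HET mouse 2 and -4.21 without KO mouse 2. Jchain was at 13.4 and 77.2 CPM against 18.6 and 55.6 CPM (-0.29, interval -1.93 to 1.36), and Mzb1 at 3.87 and 5.28 CPM against 2.30 and 5.19 CPM (-0.29, interval -1.25 to 0.67). Mouse 2 was the higher of both genotypes for all 3 genes, and the groups overlapped.

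Of the 16 other B cell genes, 2 passed, both lower in KO Tregs, beside 3.35% of all genes tested called in either direction. In 12 the KO pair lay wholly below the HET pair, beside 21.8% of all genes tested. The median of the 16 was -0.80. Pou2af1 read 42.6 and 42.0 CPM in the HET mice against 10.5 and 17.7 CPM in the KO mice (-1.58, SE 0.217, edgeR adjusted p = 0.0114), and Cr2, the complement receptor of B cells and follicular dendritic cells, at 11.6 and 11.5 CPM against 4.67 and 3.71 CPM (-1.46, SE 0.232, adjusted p = 0.0162). Neither was called without HET mouse 1 or without HET mouse 2, where 0 of the 16 passed, and 6 of the 16 passed without KO mouse 2, again with 1 KO library and the spread of the HET pair. Cd72 had the highest mean of the list in these mice and was at 38.1 to 45.1 CPM in all 4 libraries. Of 7 other immunoglobulin constant genes tested none passed, and Igkc read 81.7 and 239 CPM in the HET mice against 206 and 223 CPM in the KO mice. H2-Ab1 was called lower among the 4 MHC class II genes, whose sum was 1049 to 1422 CPM in HET and 615 to 916 CPM in KO libraries, and Cd74, the invariant chain, did not pass. Of these 4, 0 were called without either HET mouse or without KO mouse 1, and 4 without KO mouse 2. Sdc1 was lower at -1.92 (adjusted p = 0.0277), and of the 7 secretory genes tested only Prdm1 passed, higher at 0.38, and none passed in any fit without 1 library. Sdc1 passed only without KO mouse 2 among those fits.

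Epithelial markers were lower as well. Of 13, 10 were called lower in KO libraries, beside 3.35% of all genes tested called in either direction. Nearly all of these calls were lost without HET mouse 1 or without HET mouse 2. The summed level was 182 to 238 CPM in HET and 65.9 to 76.9 CPM in KO libraries. Epcam and Lgals4 remained the highest in KO libraries, at means of 38.01 and 14.5 CPM. Muc2 was at or under the floor in both KO libraries. It passed the filter on low counts through the HET libraries alone, so its part in these counts is a description only. None of 7 tested myeloid markers passed, and their sums overlapped at 110.1 to 182 and 107.0 to 155 CPM. Foxp3 was the only one of 11 T cell genes to pass, higher at 0.51, and none passed without either HET mouse. The paper reports near-complete loss of follicular regulatory T cells in these KO mice, and follicular T cells also use Pou2af1. The part of that loss, of epithelial RNA and of Cre activity outside Tregs in the lower B cell genes was not tested.

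On day 7 after the start of tamoxifen, no B cell member was called in iKO mice. In CD25- PP Tregs edgeR's quasi-likelihood test called 0% of 17079 genes, with 618 at an unadjusted p under 0.05, while the exact test called 43 and DESeq2 35. Even the deleted Junb did not pass, at a log2 fold change of -2.44 and the lowest edgeR adjusted p of all genes, 0.094. Not being called in this fit therefore does not show that a gene was unchanged. The 6 B cell members had log2 fold changes between -0.04 and 0.47, with a median of 0.20 beside -0.0023 over all genes tested. Ms4a1 was at 42.2 and 41.1 CPM in iHET and 38.7 and 47.5 CPM in iKO libraries (0.04, interval -0.35 to 0.43), and Ighm differed by 0.20 (interval -0.09 to 0.49). Cd79a at 0.47 (interval -0.28 to 1.23), Cd79b at 0.43 (interval -0.12 to 0.97), Ighd at 0.20 (interval -0.58 to 0.99) and Pax5 at -0.04 (interval -1.001 to 0.93) had wider intervals.

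Jchain had the largest fold change of the members tested there, without passing. Both PP iKO libraries, at 20.7 and 15.0 CPM, were above both iHET libraries, at 4.78 and 4.46 CPM, a log2 fold change of 1.94 (SE 0.247, interval 1.34 to 2.54) with an unadjusted p of 0.00018 in edgeR's quasi-likelihood test and an adjusted p of 0.72. The iKO pair also lay wholly above the iHET pair for Cd79a, Cd79b and Ighm, as it did for 16.5% of all genes tested. Jchain passed in the exact test (adjusted p = 6.46e-06) and in DESeq2 (adjusted p = 1.19e-06). Igha did not go with it: the iKO library of mouse 2 held 24 reads of Igha beside 412 of Jchain, the lowest ratio of the 14 libraries at 0.0583, while mouse 1 held 3721 beside 682. None of the other immunoglobulin constant genes passed, and Igkc was at 46.0 and 63.9 CPM in iHET and 170 and 84.7 CPM in iKO libraries. Epithelial sums were 247 to 561 CPM in iHET and 206 to 249 CPM in iKO libraries.

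In colonic Tregs, Junb alone passed, 0.00613% of 16313 genes. The 5 B cell members tested had log2 fold changes between -0.39 and 0.58, with a median of 0.10 beside 0.0048 over all genes, and Pax5 was too low to test. Ighm (0.11, interval -0.16 to 0.37), Ms4a1 (0.10, interval -0.29 to 0.48) and Cd79b (-0.10, interval -0.61 to 0.41) had narrow intervals. Cd79a (-0.39, interval -2.38 to 1.61) and Ighd (0.58, interval -0.77 to 1.93) had wide ones. Igha and Jchain had fold changes of -0.71 (interval -2.92 to 1.504) and -0.75 (interval -2.78 to 1.27), and their sign turned without colonic iHET mouse 3 or iKO mouse 3. With the mouse number as a block, a mouse left without its partner adds nothing to the fold change. Both of these fits thus set aside mouse 3 of both genotypes. The iHET and iKO libraries overlapped for every member.

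Whether the effect of JunB loss differed between the organs was tested as an interaction, and 0% of 18626 genes passed in edgeR's quasi-likelihood test, with 622 at an unadjusted p under 0.05 and 2 called by DESeq2. Of the 8 members tested, Jchain had the lowest p, an interaction of -2.48 (SE 0.964, interval -4.64 to -0.33, unadjusted p = 0.0273, adjusted p = 1.00).

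Ratios of counts within a library do not depend on normalization. They varied widely within the colonic set too, where the counts of Cd79a were low. Ms4a1 had 0.931 to 1.16 reads per read of Cd79a in the Foxp3-YFP-cre PP libraries, 5.92 to 11.4 in CD25- PP libraries and 6.45 to 72.4 in colonic libraries. Side by side, Cd79a was at 13.5 to 35.3 CPM in the first and 3.71 to 6.74 CPM in the second, whereas Ms4a1 was at 12.6 to 35.1 and 38.7 to 47.5 CPM. Ighm had 52.4 to 126 reads per read of Cd79a in the first, 148 to 229 in the second and 35.1 to 454 in the colon. Mouse line, CD25- gate, tamoxifen and sequencing run cannot be told apart in these sets.

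Igha was in closer proportion to Jchain in the colon. The ratio was 5.63 to 11.5 in all 6 colonic libraries, although Igha itself spanned 13.4-fold there. It was 5.46 to 10.9 in 3 of the CD25- PP libraries, 2.19 and 2.95 in HET and 0.373 and 0.567 in KO PP Tregs. Igha exceeded Ighm in 5 of 6 colonic libraries and in none of the 8 PP libraries, where it had at most 0.123 reads per read of Ighm.

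**Figure D4:**
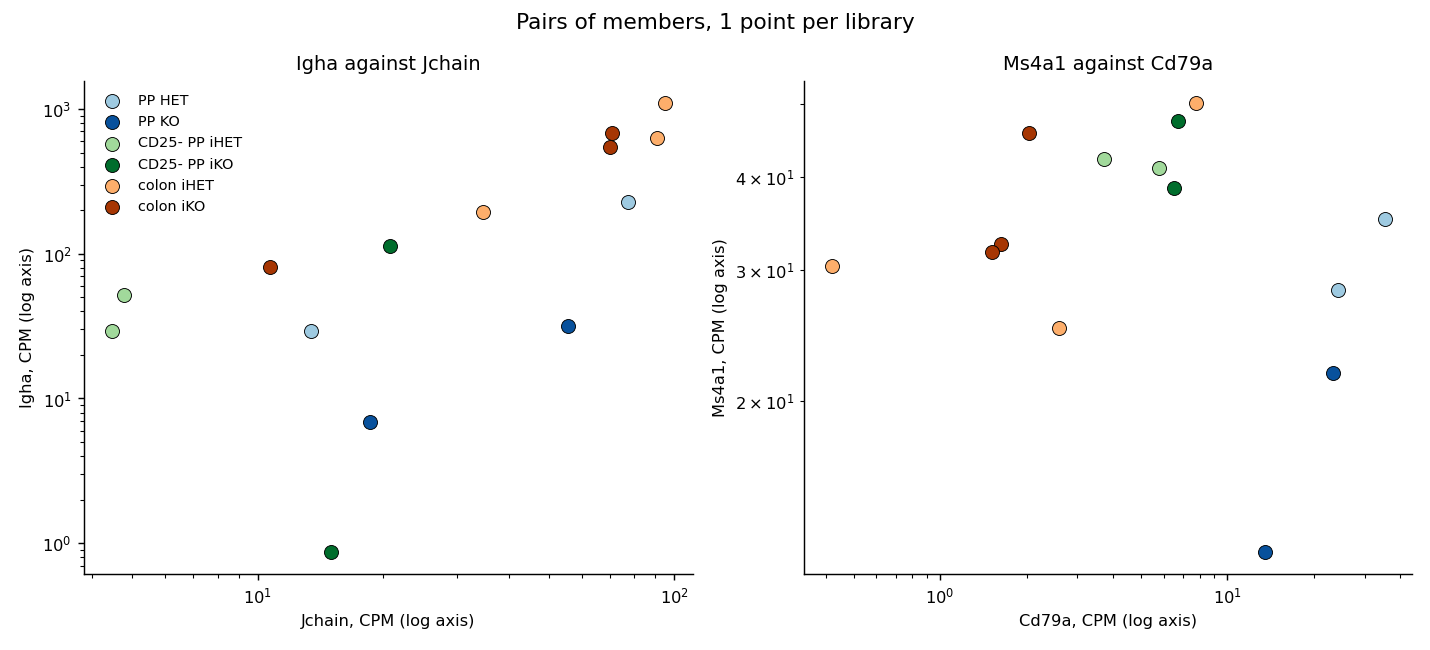
Igha against Jchain (left) and Ms4a1 against Cd79a (right) in CPM on log axes, with 1 point per library. Colonic libraries lie along a line at 5.63 to 11.5 Igha reads per Jchain read, with CD25- PP iKO mouse 2 far below it, and the Foxp3-YFP-cre libraries stand apart at about equal Ms4a1 and Cd79a.

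The genes that varied most like Cd79a and like Jchain were ranked by Pearson's r of log2 CPM deviations from the mean of their organ over the 10 inducible libraries, as a description. The libraries were sequenced as 1 set, and whether colonic and PP libraries of the same number share a mouse is not given. For Jchain they were Gm15784 (r = 0.949, mean 1.19 CPM) and Bhlha15, a transcription factor of secretory cells (0.945, mean 0.494 CPM). Next came Tor1aip1 (0.934, 96.8 CPM), AC139296.1 (0.932, 4.51 CPM) and Igkc (0.918, 209 CPM). Among the members, Pax5 had an r of 0.68 with Jchain and Igha 0.30. For Cd79a they were Fam177a (0.969, mean 2.57 CPM), 1700018A04Rik (0.931, 0.741 CPM), Rfwd3 (0.927, 23.9 CPM), Dnph1 (0.925, 3.24 CPM) and Ncapd2 (0.924, 44.6 CPM). Ighd (0.885) and Cd79b (0.882) held ranks 28 and 30, Ms4a1 had 0.518 and Jchain 0.367.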

How the data were processed

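Per the paper's methods and the labels, the authors made RNA-seq libraries from sorted Tregs with an ultra-low-input SMARTer kit, trimmed the reads, aligned them to mm10 (GRCm38) with STAR and counted unique reads on gene exons with featureCounts. The deposited values are raw counts per gene, in 1 table per mouse line. The inducible table came from paired-end reads handled as single-end.

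Ensembl IDs were named from GENCODE M21, which matched 55394 of 55487 and 53706 of 53801 IDs. Counts were tested with edgeR 4.0.16 (R 4.3.3, limma 3.58.1): a minimum of 1 CPM in as many libraries as the smaller group, TMM scaling, quasi-likelihood fit, a prior count of 1 and a Benjamini-Hochberg FDR of 0.05 over all genes tested. Intervals are at 95%. The 5 comparisons were KO against HET in PP, iKO against iHET in CD25- PP and in colon (with the mouse number as a block in place of the cage of the study's design, though no source ties numbers to cages), colon against CD25- PP, and the interaction. Scripts were tested on simulated counts. Alternatives were the study's exact test or a likelihood ratio test, DESeq2 1.42.0, DESeq2 size factors, no filter, the block added or removed, and each library left out. The genes named were the 9 members, those called and the 2 highest by mean CPM in each of 9 lists beside them, Junb and Foxp3, and the 5 most like Cd79a and Jchain. Cd4, Tnfrsf17 and Muc2 were named after their values were seen. The members and lists were chosen with earlier results of these data known. The p-values cover the spread between mice of a group. The full sort gate of the Foxp3-YFP-cre PP Tregs and values of 1 listed gene are not reported here.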

Additional observations from a re-analysis of the deposited data

How the results depend on the processing

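Of the alternatives for fold changes of members, 301 results kept their direction and side of the threshold, 33 passed only under the alternative, 7 lost the call and 22 changed sign. Counts of genes called are not in this tally. The causes were not tested. In the Foxp3-YFP-cre PP comparison 409 genes were called, against 689 by the exact test, 696 by DESeq2, 1305 with no filter, 1015 with the replicate block and 36 to 390 without 1 library. Of its B cell members 0 were called, against 2 by the exact test and by DESeq2, 3 with no filter or with the block and 0 to 3 without 1 library, and of its plasma cell members 1 by the exact test, with no filter or with the block. In CD25- PP 43 genes were called by the exact test, 35 by DESeq2, 232 with no filter and 2 to 77 without 1 library, and 1 plasma cell member (Jchain) by the first 3 of these. In the colon 25 were called by the likelihood ratio test, 44 by DESeq2, 24 with no filter and 0 to 5 without 1 library. Between organs 1581 to 3959 genes were called without 1 library, 1 to 4 B cell members (4 with no filter) and 1 to 2 plasma cell members (2 by the likelihood ratio test, DESeq2, no filter or the block). The interaction gave 2 genes by the likelihood ratio test, 2 by DESeq2 and 282 with no filter, which called 2 plasma cell members.

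Without 1 library, log2 fold changes that changed sign ran from -1.29 to 1.46 for Jchain, -0.20 to 0.0029 for Cd79b and -0.99 to 0.18 for Mzb1 in Foxp3-YFP-cre PP. In CD25- PP they ran from -0.26 to 0.21 for Pax5, -0.20 to 0.76 for Ighd, -5.49 to 1.47 for Igha and -0.11 to 0.18 for Ms4a1. In the colon they ran from -0.0396 to 0.22 for Ms4a1, -0.0611 to 1.00 for Ighd, -1.31 to 0.46 for Cd79a, -0.30 to 0.0778 for Cd79b, -1.82 to 0.40 for Igha and -1.74 to 0.29 for Jchain. There the block means that leaving out a mouse also sets aside its same-numbered partner.

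Same-numbered mice deviated together only weakly (r = 0.098 in Foxp3-YFP-cre PP, 0.101 in CD25- PP, 0.062, 0.293 and -0.089 in the colon, 0.130 and -0.033 between organs in iHET and 0.083 and -0.056 in iKO mice), and these values do not establish a pairing, in the colon either. Without the replicate block the colon still gave 1 call. With it, Igha in CD25- PP became -1.37, and between organs Pax5 lost its call (adjusted p = 0.0877) while Ms4a1 (0.0342), Ighd (0.0156) and Igha (0.0437) gained one.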

Other observations

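The lambda light chain constant gene Iglc1 had 6373 counts (226 CPM) in colonic iHET mouse 1 and 0.138 to 17.7 CPM in the other inducible libraries. In the Foxp3-YFP-cre PP libraries it had 1746 counts (64.8 CPM) in KO mouse 2 and 1.61 to 2.77 CPM in the others. Its counts relative to the kappa gene Igkc were 0.789 in that colonic library and 0.290 in that PP library, and at most 0.0377 elsewhere.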
